A study of Arabidopsis thaliana with 6 samples.

Results

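The nuclear genes for light-harvesting and photosystem proteins were followed in wild-type and *fio1* seedlings of *Arabidopsis thaliana*. The set held 44 of the 32833 genes counted, chosen by locus identifier from the LHCA, LHCB, PSA and PSB gene families. The rule uses no measured value, though it was set with earlier results of these data known. It divides into 21 antenna genes and 23 genes for photosystem subunits. The antenna genes are 6 of photosystem I (LHCI), 9 of the trimers of photosystem II (LHCII) and 6 of the monomeric antenna of photosystem II. The subunit genes are 12 of photosystem I (PSI), 6 of the lumenal side of photosystem II (PSII) and 5 for small or regulatory subunits of PSII. All 44 were detected in all libraries and passed the filter on low counts.

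In plants, antenna proteins bind chlorophyll and carotenoids and pass the energy of absorbed light to the reaction centres. LHCA proteins form a belt on one side of PSI. LHCB1, LHCB2 and LHCB3 build the LHCII trimers around PSII, and LHCB4, LHCB5 and LHCB6, also known as CP29, CP26 and CP24, link those trimers to the PSII core. The reaction centre proteins themselves are encoded in the plastid genome, whereas the genes studied here are nuclear and their products are imported into the chloroplast. Antenna genes are classical examples of genes controlled by light, by the circadian clock and by signals from the chloroplast.

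RNA-seq counts came from 14-day-old seedlings of 3 genotypes, each with 2 libraries. These were wild type Col-0, the mutant *fio1-1*, which carries a splice-site mutation, and a mutant that the labels call *fio1-2*, all untreated and in the Col-0 background. FIO1 is an RNA methyltransferase related to human METTL16. The text of the study describes its sequenced second allele as *fio1-5*, made by CRISPR, and reserves *fio1-2* for a T-DNA line, so that the name of the labels is kept here and taken to be that CRISPR allele. Each mutant is 1 line, and RNA was taken from whole seedlings pooled by line, so that fewer green cells and less RNA per cell cannot be told apart. The labels describe growth on soil and the methods describe agar plates, both in long days. The hour of harvest is not given in the sources used here. The study calls its replicates biological without saying whether they were grown apart, and p-values then measure only the spread between these samples.

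Libraries held 9717111 to 13055457 counts. *FIO1* transcripts themselves were at 8.94 to 11.1 CPM (read counts scaled to library size) in wild type, at 8.24 and 8.54 CPM in the first mutant and at 6.97 and 8.65 CPM in the second, with adjusted p = 0.346 and 0.146 against wild type, so that transcript level does not check the labels. Leaf mesophyll markers were abundant in all 6 libraries, as green seedlings would have them. Their 4 genes summed to 22242 and 22524 CPM in wild type, 24124 and 25271 CPM in *fio1-1*, and 18952 and 19009 CPM in *fio1-2*. Seed maturation markers stood far apart between genotypes, and their 9 genes summed to 0.673 and 0.92 CPM in wild type, 39.4 and 41.6 CPM in *fio1-1*, and 8700.2 and 9002 CPM in *fio1-2*. Root markers summed to between 1790.1 and 2005 CPM in wild type and *fio1-1* and to 2361 and 2419 in *fio1-2*, most of it from *BGLU23* (1584 to 2218 CPM over the 6 libraries). Of these 9 genes, 3 were higher and 2 lower in each mutant, with *IRT1* at 1.93-fold and 0.76-fold of wild type. Floral organ markers were near 0 (*AG* at 0 counts throughout) except *SEP3*, which was at 7.05 and 7.41 CPM in wild type and 16.6 and 17.3 CPM in *fio1-2*. Of 5 senescence markers *SAG12* had 0 counts throughout, *SAG13* was higher in both mutants (0.577 to 0.613 CPM in wild type, 4.07 to 4.68 CPM in the mutants) and *ORE1* and *ASN1* were lower. The part of these differences in the results below was not tested.

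The first question was how far the 44 genes moved in each mutant. Their transcripts took 7.93% and 7.96% of all counts in the wild-type libraries. In *fio1-1* they took 10.8% and 10.5%. The *fio1-2* libraries gave 10.3% and 10.5%. Adjusted p-values below come from a limma-voom fit over 21268 genes, and a gene was taken to differ at an adjusted p under 0.05. The fit takes the spread of each gene mostly from all genes together, with 62.1 prior beside 3 residual degrees of freedom. Very small p-values thus rest more on that shared spread than on the libraries of the gene itself. In *fio1-1*, 40 members were higher than in wild type and 1 was lower, while of all genes tested 28.6% differed, 14.2% upwards and 14.3% downwards. In *fio1-2*, 33 members were higher and 6 were lower, while 32.5% of all genes differed, 16.4% upwards and 16.1% downwards. The median change of the members was 0.35 on the log2 scale in *fio1-1* and 0.24 in *fio1-2*, whereas the median over all genes tested was 0.01 and 0.00.

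High counts give small standard errors, so the same shares were taken over the 1827 genes with a mean of at least 100 CPM, which include 41 of the members. Against wild type, 25.9% of these abundant genes went up in *fio1-1* and 28.1% went down. For *fio1-2* the shares were 22.9% up and 36.9% down. Most changes of the members were modest, and 6 members in *fio1-1* and 7 in *fio1-2* were at least 2-fold higher, beside 2.92% and 4.24% of all genes. No member was at least 2-fold lower, where 1.99% and 1.7% of all genes were. Both comparisons use the same wild-type libraries.

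**Figure D1:**
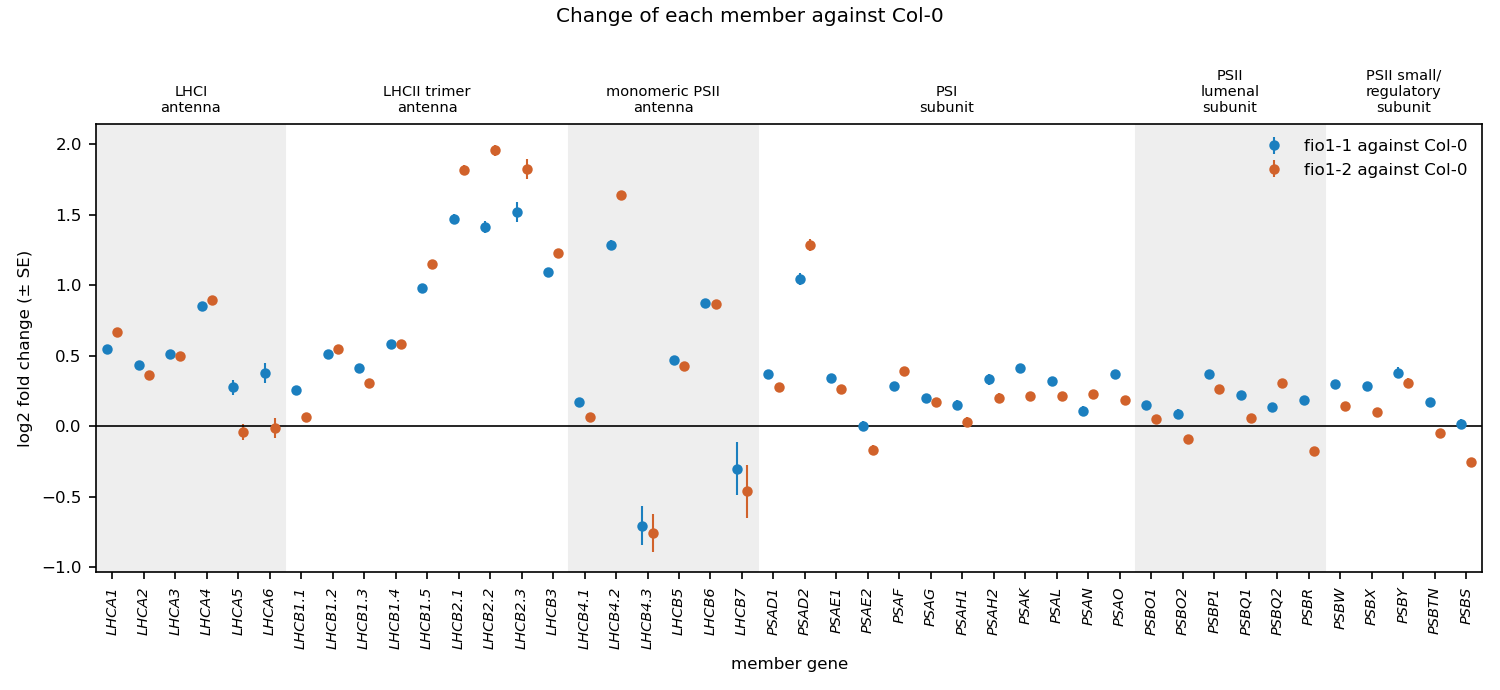
Change of each of the 44 genes against Col-0 as a log2 fold change (vertical axis, points with standard errors of the fit), for *fio1-1* in blue and *fio1-2* in orange, grouped by role. The LHCB2 genes, *LHCB3*, *LHCB1.5*, *LHCB4.2* and *PSAD2* stand at or above about 1, and *LHCB4.3* lies near -0.71 and -0.76. The PSII subunit genes lie between -0.26 and 0.38.

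Set against each other, the antenna genes had the larger medians and sums. Of 21 antenna genes, 19 went up and 1 down in *fio1-1* with a median of 0.51 on the log2 scale, and for *fio1-2* the counts were 17 and 2 with a median of 0.55. Of 23 subunit genes, 21 went up and none down in *fio1-1*, with a median of 0.29. For *fio1-2*, 16 went up and 4 down, with a median of 0.19. Summed over genes, antenna transcripts were at 50292 and 50597 CPM in the wild-type libraries, at 75331 and 71811 CPM in *fio1-1*, and at 72494 and 73423 CPM in *fio1-2*. That is 1.46-fold and 1.45-fold the wild-type mean. Subunit transcripts summed to 28469 and 28606 CPM in wild type, 35003 and 33164 CPM in *fio1-1*, and 30698 and 31758 CPM in *fio1-2*, which is 1.19-fold and 1.09-fold. No library of either mutant overlapped with wild type in either sum.

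The number of antenna counts for each subunit count was 1.77 in both wild-type libraries. It was 2.15 and 2.17 in *fio1-1*, and 2.36 and 2.31 in *fio1-2*, so that the ratio was higher in all 4 mutant libraries and highest in the *fio1-2* ones. With 2 libraries against 2, an exact permutation test cannot give a two-sided p under 0.333, and no test was made of the ratio. Within *fio1-1*, the first library lay above the second in both sums, while the ratio was alike in both.

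**Figure D2:**
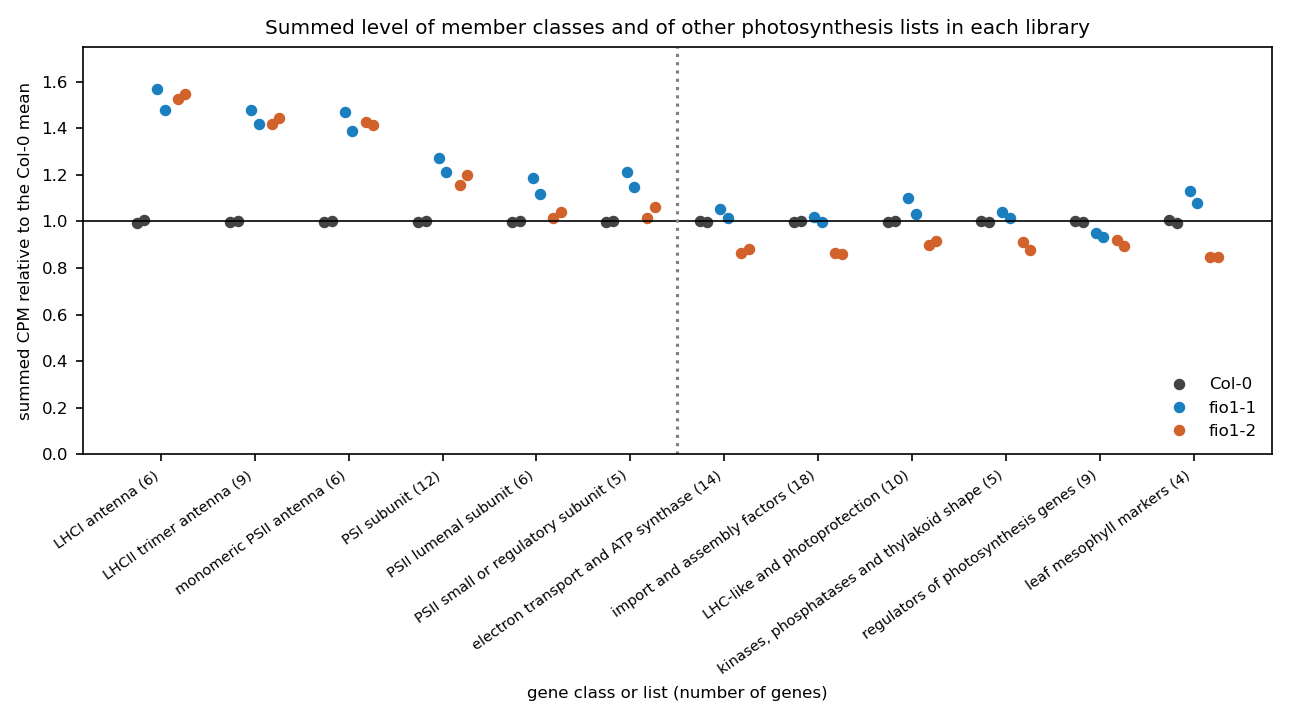
Summed CPM of each role class, of 5 further photosynthesis lists and of the leaf markers, divided by the Col-0 mean of the same set (vertical axis), with 1 point for each library. The 3 antenna classes lie between 1.39 and 1.57 in both mutants, PSI subunits between 1.16 and 1.27, and no *fio1-2* library exceeds 1.06 in the 2 PSII subunit classes.

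Among the antenna classes, the LHCII trimer genes had the largest median by gene, 0.98 for *fio1-1* and 1.15 for *fio1-2* on the log2 scale, and all 9 were higher in both mutants. The class medians were 0.47 and 0.43 for the LHCI genes, and 0.32 and 0.25 for the monomeric antenna. Within the trimer class, the 3 genes with the lowest levels, those for LHCB2, had the largest changes. Levels were compared between genes as CPM per kilobase of exon (RPKM). *LHCB1.3*, formerly CAB1, was the most abundant member at 14687 RPKM in wild type, and *LHCB2.3* reached only 30.8 RPKM. Across all 44 members, Spearman's rho between level in wild type and change was 0.04 for *fio1-1* and 0.03 for *fio1-2*, as a description over genes that share the same libraries.

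**Figure D3:**
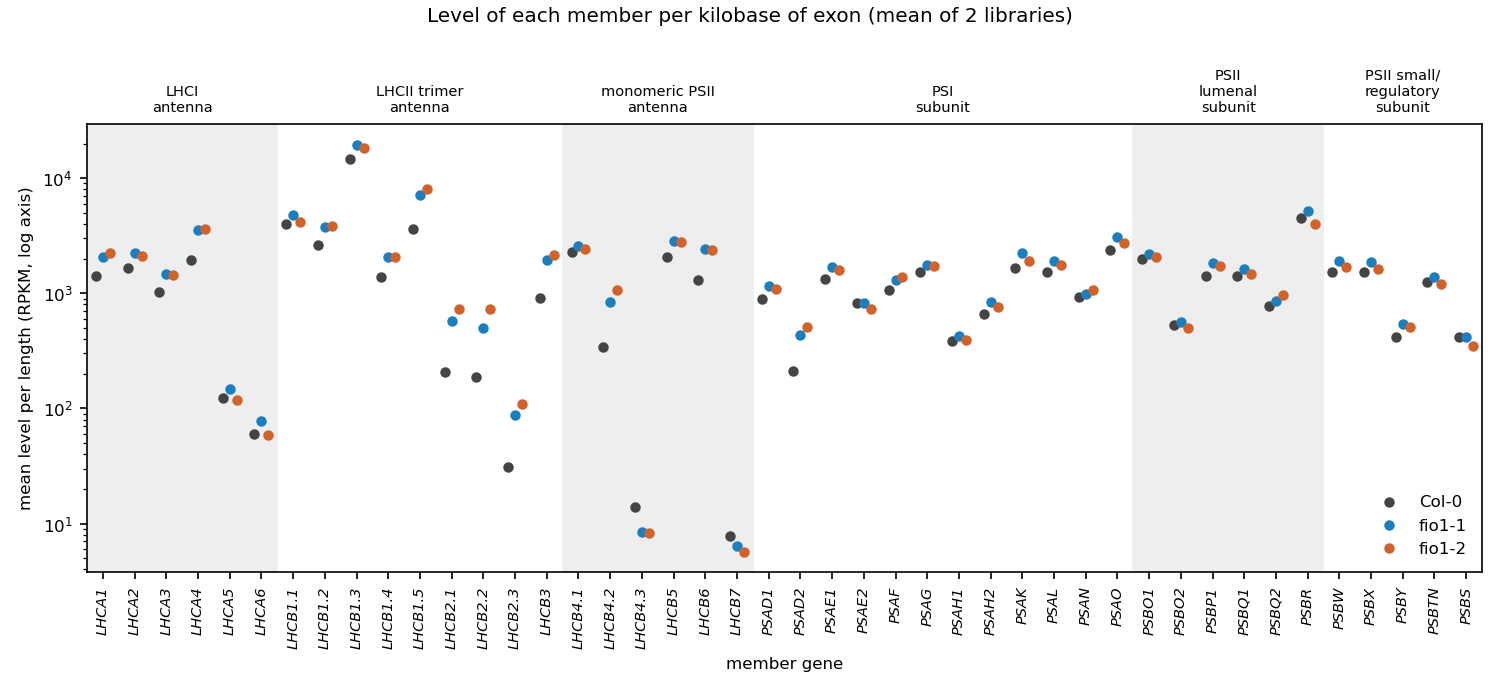
Mean level of each member per kilobase of exon (RPKM, log axis) in Col-0, *fio1-1* and *fio1-2*, grouped by role, with 1 point for each genotype mean of 2 libraries. *LHCB1.3* stands highest at 14687 RPKM in Col-0, *PSBR* follows at 4530 RPKM, and *LHCB7* is lowest at 7.85 RPKM.

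LHCB2 proteins are the trimer subunits whose phosphorylation by the kinase STN7 moves antenna between the photosystems. *LHCB2.1* (AT2G05100, chr2:1822990-1824480 on the minus strand of TAIR10.1) was at 300.3 and 286 CPM in wild type. It reached 813 and 811 CPM in *fio1-1*, and 1036 and 1028 CPM in *fio1-2*. The 3 genotypes formed separate, ordered pairs. The change was 2.77-fold in *fio1-1* (log2 1.47 ± 0.04 SE, adjusted p = 2.67e-44) and 3.52-fold in *fio1-2* (1.82 ± 0.04, adjusted p = 3.43e-51).

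*LHCB2.2* (AT2G05070, chr2:1799234-1800472, minus strand) lies close by on the same chromosome and behaved alike. Its levels were 219 and 211 CPM in wild type, 594 and 553 CPM in *fio1-1*, and 849.6 and 821 CPM in *fio1-2*. Again no library of a genotype overlapped with another genotype. The rise was 2.67-fold in *fio1-1* and 3.88-fold in *fio1-2*, the largest of any member, and the difference between the mutants was 0.54 ± 0.03 on the log2 scale (adjusted p = 1.27e-22).

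*LHCB2.3* (AT3G27690, chr3:10255906-10257489, plus strand) is the weakest copy. It was at 45.5 and 44.6 CPM in wild type, 131 and 128 CPM in *fio1-1*, and 158 and 161 CPM in *fio1-2*. Both mutants lay above wild type without overlap, by 2.87-fold and 3.54-fold. A gene on the opposite strand, AT3G27700, shares its 3′ part, and 33.9% of the 150-base windows of *LHCB2.3* transcripts occur in it, so that its counts are less certain. Summed as a family, LHCB2 rose 2.73-fold in *fio1-1* and 3.66-fold in *fio1-2*, and the shares of the 3 copies stayed within 37.1% to 54.4% for *LHCB2.1* and *LHCB2.2* and 7.72% to 8.55% for *LHCB2.3*.

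*LHCB3*, a single gene (AT5G54270, chr5:22038165-22039568, plus strand), encodes the trimer subunit that sits next to the monomeric antenna. It was at 1122 and 1160.0 CPM in wild type, 2468 and 2394 CPM in *fio1-1*, and 2657 and 2679.9 CPM in *fio1-2*. All mutant libraries lay above both wild-type ones, with 2.13-fold in *fio1-1* (log2 1.09 ± 0.02, adjusted p = 4.84e-47) and 2.34-fold in *fio1-2* (1.23 ± 0.02, adjusted p = 3.43e-51). The overlapping gene AT5G54280 on the opposite strand had 14.6% of its mean CPM.

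LHCB1 supplies most of the LHCII protein, from 5 intronless genes on chromosomes 1 and 2. *LHCB1.3* (AT1G29930, chr1:10477885-10479114, plus strand) was at 18022 and 18108 CPM in wild type. It reached 24790 and 23269 CPM in *fio1-1*, and 22315 and 22436 CPM in *fio1-2*. Both mutants were above wild type, by 1.33-fold and 1.24-fold, and *fio1-2* stood at -0.10 on the log2 scale against *fio1-1* (adjusted p = 1.69e-11, and 0.195 with a robust variance prior). Without the first *fio1-1* library that difference was -0.06.

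*LHCB1.5* (AT2G34420, chr2:14522524-14523568, minus strand) had the largest fold change of the LHCB1 copies. A natural antisense locus covers this gene whole, and its counts are given further on. It was at 3759 and 3839 CPM in wild type, 7734 and 7269 CPM in *fio1-1*, and 8382 and 8447 CPM in *fio1-2*. The rise was 1.97-fold in *fio1-1* (log2 0.98 ± 0.02, adjusted p = 3.53e-52) and 2.22-fold in *fio1-2* (1.15 ± 0.02, adjusted p = 1.17e-57). Its share of all LHCB1 counts went from 11.7% and 11.9% in wild type to 16.8% and 16.5% in *fio1-1* and 19.4% and 19.2% in *fio1-2*. Over the same libraries, the share of *LHCB1.1*, formerly CAB2, went from 16.3% in both to 13.2% and 14.5%, then to 12.8% and 12.3%. *LHCB1.1* rose least of the family, by 1.19-fold in *fio1-1* and 1.05-fold in *fio1-2*, the latter a call lost with edgeR and DESeq2 (adjusted p = 0.0887 and 0.181) and without the first wild-type or the first *fio1-2* library (adjusted p = 0.0644 and 0.0534). Summed, LHCB1 rose by 0.49 (log2) in *fio1-1*, with a rise of 0.44 for *fio1-2*.

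Near-identical copies could in principle exchange reads. Coding sequences of the LHCB1 genes were 86.8% to 96.4% identical in pairs, and those of *LHCB2.1* and *LHCB2.2* 96.6%. Of 150-base windows, the length of the sequenced reads, none of the LHCB1 transcripts recurred elsewhere in the genome or in another mRNA, and 3 windows were shared between *LHCB2.1* and *LHCB2.2*. In all, 36 members had no such window and 8 had at least 1. The search took exact matches in the genome and in annotated mRNAs. It could not register an overlapping locus without an mRNA, such as the antisense locus of *LHCB1.5*, or reads aligned with mismatches.

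**Figure D4:**
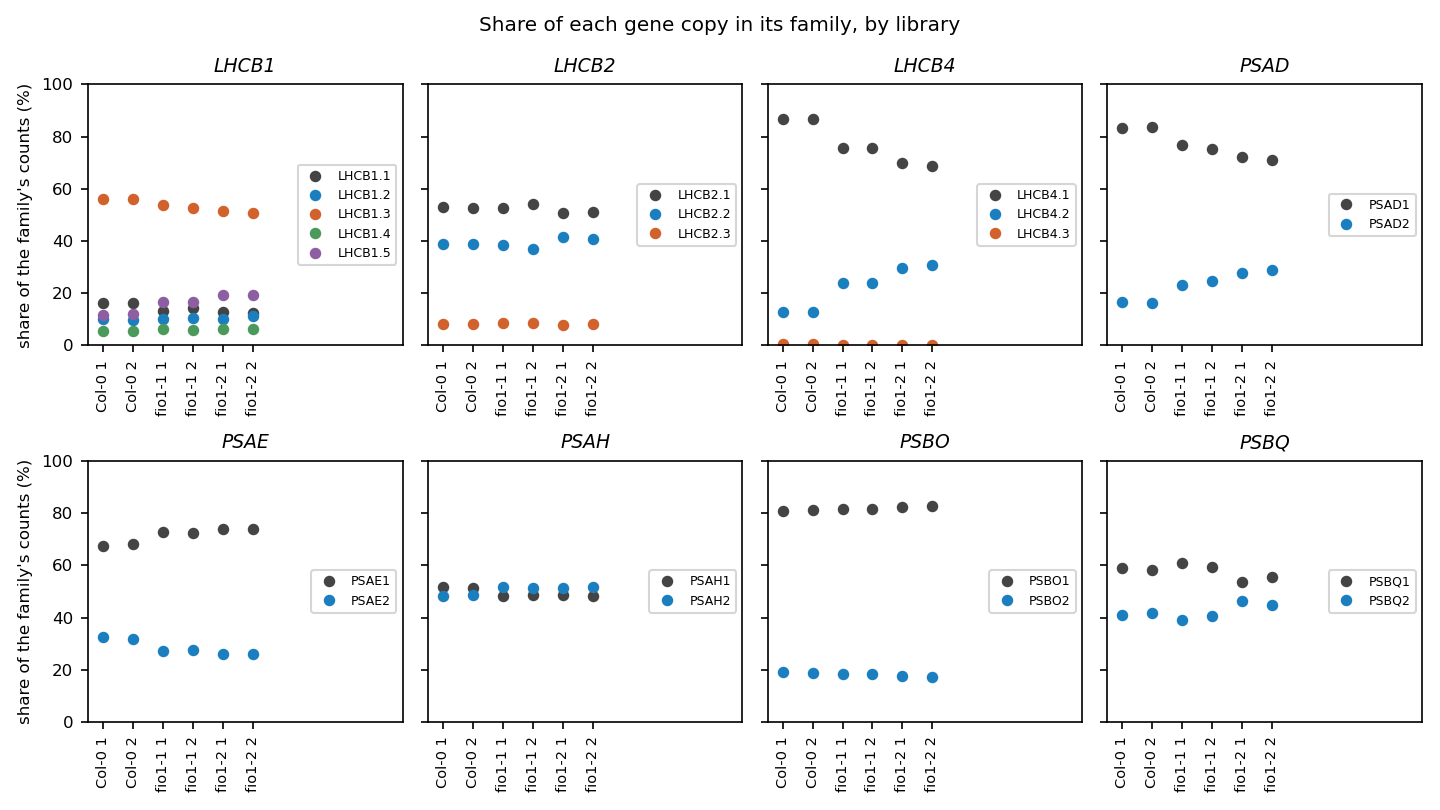
Share of each gene copy in the summed counts of its family (percent, vertical axis) in each of the 6 libraries, for the 8 families with more than 1 copy. The shares of *LHCB4.2*, *PSAD2* and *LHCB1.5* are higher in both mutants than in Col-0 and highest in *fio1-2*, while those of *PSAE2* and *LHCB1.1* are lower.

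The monomeric antenna genes split. *LHCB4.2* (AT3G08940, chr3:2717557-2718923, plus strand) encodes a copy of CP29. It was at 469 and 473 CPM in wild type, 1181 and 1116 CPM in *fio1-1*, and 1440.2 and 1489 CPM in *fio1-2*. The genotypes did not overlap, and the rise was 2.44-fold in *fio1-1* (log2 1.29 ± 0.03, adjusted p = 1.53e-43) and 3.11-fold in *fio1-2* (1.64 ± 0.03, adjusted p = 3.43e-51). The main copy, *LHCB4.1*, with an identity of 81.1% in the coding sequence, rose 1.13-fold and 1.05-fold, the latter a call lost with edgeR and DESeq2 (adjusted p = 0.102 and 0.22) and without either wild-type library or the first *fio1-2* library (adjusted p = 0.106 to 0.168). *LHCB4.2* thus made up 12.7% and 12.8% of LHCB4 counts in wild type, 23.9% and 24.1% in *fio1-1*, and 29.6% and 30.8% in *fio1-2*.

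*LHCB4.3*, also called LHCB8, was the only member lower in both mutants at the threshold used. This more distant copy (AT2G40100, chr2:16745628-16747424, plus strand) was at 20.2 and 20.0 CPM in wild type, 12.5 and 12.1 CPM in *fio1-1*, and 12.4 and 11.5 CPM in *fio1-2*. The mutant libraries overlapped each other and none overlapped with wild type. The log2 fold change was -0.71 ± 0.14 in *fio1-1* (adjusted p = 3.78e-05) and -0.76 ± 0.13 in *fio1-2* (adjusted p = 4.32e-06). Summed, LHCB4 rose by 0.37 and 0.38 on the log2 scale, so that the fall of this copy is small in CPM beside the other copies.

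*LHCB5*, encoding CP26, had the highest CPM of the class averaged over all 6 libraries, although *LHCB4.1* was higher in wild type at 3209 and 3214 CPM. *LHCB5* was at 2861 and 2853 CPM in wild type, 4043 and 3859.99 CPM in *fio1-1*, and 3819.96 and 3865 CPM in *fio1-2*. Both mutants were higher, by 1.38-fold and 1.35-fold, and did not differ from each other at the threshold (adjusted p = 0.113). *LHCB6*, encoding CP24, rose 1.83-fold in *fio1-1* and 1.82-fold in *fio1-2*. The rare *LHCB7* was at 10.2 and 8.85 CPM in wild type, 8.04 and 7.35 CPM in *fio1-1*, and 7.26 and 6.58 CPM in *fio1-2*. Its log2 fold change was -0.30 ± 0.19 in *fio1-1* (adjusted p = 0.24) and -0.46 ± 0.19 in *fio1-2* (adjusted p = 0.0464), a call that was lost without any 1 of the wild-type or *fio1-2* libraries (-0.37 and adjusted p = 0.278 without the first wild-type library).

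In the LHCI belt, the 4 main genes rose in both mutants and the 2 minor ones in *fio1-1*. *LHCA4* (AT3G47470) was at 2528 and 2519 CPM in wild type, 4706 and 4412 CPM in *fio1-1*, and 4676 and 4708 CPM in *fio1-2*. All mutant libraries were far above wild type, by 1.81-fold and 1.86-fold (adjusted p = 2.47e-45 and 1.09e-47). *LHCA1*, *LHCA2* and *LHCA3* rose 1.35-fold to 1.46-fold in *fio1-1* and 1.29-fold to 1.58-fold in *fio1-2*.

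LHCA5 and LHCA6 are scarce proteins that link PSI to the NDH complex of cyclic electron transport. *LHCA6* (AT1G19150) was at 70.0 and 69.0 CPM in wild type, 93.1 and 87.6 CPM in *fio1-1*, and 63.2 and 73.9 CPM in *fio1-2*. The *fio1-1* libraries lay above all others, and the *fio1-2* ones lay on both sides of wild type. The rise in *fio1-1* was 0.38 ± 0.07 on the log2 scale (adjusted p = 1.08e-05), the value in *fio1-2* was -0.01 ± 0.07 (adjusted p = 0.897), and *fio1-2* minus *fio1-1* was -0.39 ± 0.07 (adjusted p = 4.39e-06). *LHCA5* had the same pattern, with 1.21-fold in *fio1-1* (adjusted p = 4.43e-05), 0.97-fold in *fio1-2* (adjusted p = 0.592) and a difference of -0.32 (adjusted p = 2.66e-06).

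Promoters of the members were read from RefSeq (TAIR10.1), from 250 bases before to 50 bases after the annotated start, and searched on both strands for 4 short motifs, none of which contains another. A CCAATC box, the letters reported for the GOLDEN2-LIKE factors that control chloroplast genes, was in 11 of 21 antenna promoters and in 4 of 23 subunit promoters, and in 12.4% of 27443 nuclear protein-coding promoters. A G-box (CACGTG) was in 5 antenna and 11 subunit promoters, and in 7.68% of all promoters. An I-box (GATAAG) was in 6 and 12, and in 14.6% of all. The evening element (AAAATATCT) of clock-controlled genes was in 1 antenna and no subunit promoter, and in 2.82% of all. Of the 7 members at least 2-fold higher in a mutant, 5 had a CCAATC box, as did 10 of the other 37. These matches describe the letters only.

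The windows below hold the CCAATC box, in capitals, of those LHCB2, LHCB1 and LHCB4 copies that have one. They are on the strand of the gene and before its start. In the 3 LHCB2 genes the box shown begins 59, 53 and 54 bases before the start. *LHCB2.1* and *LHCB4.1* each hold 2 such boxes, of which 1 is shown. The windows lie at chr2:1824522-1824551 for *LHCB2.1*, chr2:1800508-1800537 for *LHCB2.2*, chr3:10255840-10255869 for *LHCB2.3*, chr2:14523640-14523669 for *LHCB1.5*, chr1:10477782-10477811 for *LHCB1.3*, chr3:2717469-2717498 for *LHCB4.2* and chr5:208819-208848 for *LHCB4.1*.
LHCB2.1: ccacagccactaCCAATCttctattaggac
LHCB2.2: ccacaaccattaCCAATCtcctcataggac
LHCB2.3: atctaaaaccaaCCAATCtacactcgctga
LHCB1.5: aaatctcataagCCAATCactaaacagata
LHCB1.3: gtgggtgtttcgCCAATCcatgaaacgcac
LHCB4.2: agcttcttttgcCCAATCagcttgcttgcc
LHCB4.1: aaattatttgacCCAATCagattgtacctc
The box was present in copies that rose much and in copies that rose little, *LHCB4.1* among the latter. *LHCB3* and *PSAD2* had none in this stretch, nor did *LHCB1.1*, *LHCB1.2*, *LHCB1.4* and *LHCB4.3*. Among these, *LHCB1.1* rose least of its family and *LHCB4.3* fell in both mutants.

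G-boxes were found in 11 of the 23 subunit promoters. Windows of the PSBQ pair and of *PSAE2* are shown because these copies moved apart from each other or from their partner, with the G-box in capitals, at chr4:11334257-11334286 (plus strand), chr4:2673303-2673332 (minus strand) and chr2:8736659-8736688 (plus strand) of TAIR10.1.
PSBQ1: aaataatcttgcCACGTGgctttaaggcgg
PSBQ2: gaatcaagaaacCACGTGtcaacatattag
PSAE2: gatatgtgatcaCACGTGtcatatcacaag
The boxes shown begin 83, 77 and 63 bases before the start. Each PSBQ promoter holds a second G-box, 55 bases before the start in *PSBQ1* and 145 in *PSBQ2*. *PSAE1*, the partner of *PSAE2*, has a G-box too. On the log2 scale *PSBQ1* changed by 0.22 in *fio1-1* and 0.06 in *fio1-2*, and *PSBQ2* by 0.13 and 0.31. The change of *PSBQ1* in *fio1-2* was not called (adjusted p = 0.109, and 0.028 with upper-quartile factors). It was 0.12 without the first *fio1-2* library and -0.02 without the second. The call of *PSBQ1* in *fio1-1* was lost with a robust variance prior (adjusted p = 0.0894).

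The PSI subunits had smaller medians than the LHCI and LHCII trimer genes. Their medians were close to those of the monomeric antenna (0.32 for *fio1-1* and 0.25 for *fio1-2*). Of 12 genes, 11 went up and none down in *fio1-1*, with a median of 0.33 on the log2 scale. For *fio1-2*, 10 went up and 1 down, and the median was 0.21. PSAD and PSAE form the stromal docking site of ferredoxin, and each has 2 copies. *PSAD2* (AT1G03130, chr1:753307-754262, minus strand) was at 202 and 198 CPM in wild type, 408 and 417 CPM in *fio1-1*, and 464 and 509 CPM in *fio1-2*. It rose without overlap by 2.06-fold in *fio1-1* (log2 1.04 ± 0.05, adjusted p = 1.6e-30) and 2.44-fold in *fio1-2* (1.28 ± 0.04, adjusted p = 1.63e-36). *PSAD1*, identical in 86.3% of aligned coding positions, rose 1.29-fold and 1.21-fold. The share of *PSAD2* in the pair was 16.6% and 16.4% in wild type, 23.2% and 24.7% in *fio1-1*, and reached 27.6% and 29.1% in *fio1-2*.

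In the PSAE pair the second copy lost share. *PSAE2* (AT2G20260) was at 512 and 498 CPM in wild type, 509 and 499 CPM in *fio1-1*, and 441 and 454 CPM in *fio1-2*. Libraries of *fio1-1* lay within the wild-type pair and those of *fio1-2* below it, with a log2 fold change of -0.17 ± 0.04 (adjusted p = 6.3e-05). *PSAE1* rose by 0.34 and 0.26. The share of *PSAE2* in its pair thus went from 32.5% and 31.8% in wild type to 27.0% and 27.5% in *fio1-1* and 26.2% and 25.9% in *fio1-2*.

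PSAH, PSAL and PSAO lie at the side of PSI where LHCII docks. *PSAO* (AT1G08380), the most abundant PSI subunit transcript in mean CPM, was at 1955 and 1950.1 CPM in wild type, 2558 and 2479 CPM in *fio1-1*, and 2201 and 2245 CPM in *fio1-2*. Both *fio1-1* libraries lay above both of *fio1-2*, which lay above wild type, with 1.29-fold and 1.14-fold (adjusted p = 1.5e-23 and 3.37e-11). *PSAK*, *PSAL* and *PSAH2* showed this order in their means too. *PSAF*, the docking subunit of plastocyanin, and the lumenal *PSAN* had higher means in *fio1-2* than in *fio1-1*, by 0.11 and 0.12 on the log2 scale (adjusted p = 0.000502 and 0.00306). Without the second *fio1-1* library both calls were lost, at differences of 0.07 and 0.05. That of *PSAN* was also lost without the second *fio1-2* library (at 0.07) and with DESeq2 (adjusted p = 0.43).

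The lumenal PSII subunits had the smallest medians of all classes. PSBO, PSBP and PSBQ are the extrinsic proteins that protect the oxygen-evolving cluster. All 6 lumenal genes were higher in *fio1-1*, with a median of 0.17 on the log2 scale, while in *fio1-2* 3 were higher, 2 were lower and the median was 0.05. *PSBP1* rose most in *fio1-1*, by 1.29-fold, and *PSBQ2* most in *fio1-2*, by 1.24-fold. Summed, PSBO rose by 0.13 in *fio1-1* and was at 0.02 in *fio1-2* (adjusted p = 0.431).

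*PSBR* (AT1G79040), which helps PSBP to bind, was the most abundant subunit transcript. It was at 3555 and 3547 CPM in wild type, 4262 and 3813 CPM in *fio1-1*, and 3114 and 3174 CPM in *fio1-2*. Its *fio1-1* libraries lay above wild type, though far from each other, and its *fio1-2* libraries lay below. The log2 fold changes were 0.18 ± 0.02 and -0.17 ± 0.02 (adjusted p = 4.6e-10 and 2.87e-09), and the mutants differed by -0.36 (adjusted p = 9.97e-22). With a robust variance prior these 3 adjusted p-values were 0.154, 0.159 and 0.051, and without the first *fio1-1* library the rise in *fio1-1* was 0.10.

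*PSBO2* (AT3G50820) was at 707 and 701 CPM in wild type, 762 and 734 CPM in *fio1-1*, and 670.5 and 653 CPM in *fio1-2*. The genotypes formed 3 separate pairs at small distances, with log2 fold changes of 0.09 ± 0.03 and -0.09 ± 0.03 (adjusted p = 0.0281 and 0.0191). Both calls against wild type were lost with edgeR (adjusted p = 0.0736 and 0.0603) and without either wild-type library (adjusted p = 0.1 to 0.221). The rise in *fio1-1* was 0.06 without its first library (adjusted p = 0.287), and the fall in *fio1-2* was lost without its second (-0.07, adjusted p = 0.157). The difference between the mutants was -0.18 (adjusted p = 5.46e-06).

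Among the small and regulatory subunits, *PSBW* (AT2G30570) was at 1471 and 1474 CPM in wild type, 1878 and 1752 CPM in *fio1-1*, and 1589.6 and 1659.5 CPM in *fio1-2*, with rises of 0.30 and 0.14 on the log2 scale. Here too *fio1-1* lay above *fio1-2* and both above wild type. *PSBS* (AT1G44575), also known as NPQ4, encodes the sensor of lumen acidity that switches the antenna to heat dissipation. It was at 755 and 746 CPM in wild type, 766 and 754 CPM in *fio1-1*, and 639 and 618 CPM in *fio1-2*. The *fio1-1* libraries overlapped with wild type, whereas *PSBS* fell in *fio1-2* to 0.84-fold (adjusted p = 2.18e-10), and the mutants differed by -0.28 (adjusted p = 5.24e-11). *PSBX* and *PSBY* rose in both mutants, by 0.10 to 0.38 on the log2 scale. The call of *PSBX* in *fio1-2* was lost with DESeq2 (adjusted p = 0.124). It was also lost without the first wild-type library (at 0.07) or the second *fio1-2* library (at 0.06).

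The direct comparison of the mutants asked where the alleles differ. In it 11 members were higher in *fio1-2* than in *fio1-1* and 23 were lower, beside 9.31% and 8.76% of all genes tested (18.1% in either direction), and 18.1% and 32% of the genes with a mean of at least 100 CPM. None differed by 2-fold, where 2.13% of all genes were 2-fold higher and 0.545% lower. By class, 17 of 23 subunit genes were lower in *fio1-2* and 4 higher, with a median of -0.13 on the log2 scale. Of the antenna genes 6 were lower and 7 higher, with a median of -0.01 that turned to 0.04 without the first *fio1-1* library. The antenna genes higher in *fio1-2* included the 3 LHCB2 genes, *LHCB3*, *LHCB1.5*, *LHCB4.2* and *LHCA1*. These 7 differences ranged from 0.12 to 0.54 on the log2 scale. With DESeq2, 10 members were higher in *fio1-2* than in *fio1-1* and 16 were lower. The lower calls lost there included *PSAD1*, *PSAE1*, *PSAH1*, *PSAH2* and *PSBQ1* (adjusted p = 0.0769 to 0.256).

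Other nuclear genes of photosynthesis were taken from lists of the same kind. The list counts stand beside 14.2% of all genes up and 14.3% down in *fio1-1*, and 16.4% and 16.1% in *fio1-2*. Of 14 genes of electron transport and ATP synthase, 7 went up and 1 down in *fio1-1* and the median was 0.09 on the log2 scale. For *fio1-2*, 3 went up and 8 down, and the median was -0.15. *PGRL1B*, a component of cyclic electron flow around PSI, was at 20.2 and 19.3 CPM in wild type, 48.2 and 50.8 CPM in *fio1-1*, and 46.5 and 56.1 CPM in *fio1-2*, and its rises were 1.32 and 1.38 on the log2 scale (adjusted p = 1.15e-16 and 6.45e-18). The more abundant copy *PGRL1A*, at a mean of 271 CPM in wild type, stood at 0.20 in *fio1-1* and -0.01 in *fio1-2* (adjusted p = 0.000112 and 0.83). *PETE1*, a plastocyanin gene, rose by 0.46 in *fio1-1* from a mean of 86.9 CPM in wild type. The other plastocyanin gene, *PETE2*, at a mean of 1852 CPM in wild type, stood at 0.19 and -0.19. *LFNR2*, a ferredoxin-NADP reductase gene, fell by 0.45 in *fio1-2*.

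Of 18 import and assembly factors, 5 went up and 5 down in *fio1-1* and the median was 0.06. For *fio1-2*, 2 went up and 12 down, and the median was -0.21. *LPA19*, a PSII assembly gene, rose by 0.65 in *fio1-1*, *PYG7*, needed for PSI assembly, fell by 0.49 and 0.70, and the PSII assembly gene *HCF136* fell by 0.51 in *fio1-2*. Among 10 genes of LHC-like and photoprotective proteins, 2 went up and 1 down in *fio1-1*, beside 28.6% of all genes in either direction. For *fio1-2*, none went up and 6 went down, beside 32.5% of all genes. In this list *OHP1* and *LIL3:2* rose by 0.34 and 0.30 in *fio1-1*, and *SEP1* and *SEP2* fell by 0.35 and 0.37 in *fio1-2*. Of 5 genes for kinases, phosphatases and thylakoid shape, *STN8* rose by 0.19 in *fio1-1*, and *CURT1A* and *TAP38* fell by 0.25 and 0.12 in *fio1-2*. Unlike the antenna classes, all 4 lists summed to less than wild type in both *fio1-2* libraries.

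Of the 9 regulators listed, *GLK1*, a GOLDEN2-LIKE factor, was at 76.5 and 74.2 CPM in wild type, 78.7 and 78.9 CPM in *fio1-1*, and 77.7 and 77.9 CPM in *fio1-2*, with adjusted p = 0.497 and 0.621. *GLK2* fell by 0.58 in *fio1-1* (adjusted p = 1.78e-05) and stood at -0.10 in *fio1-2* (adjusted p = 0.492). The GATA factor genes *GNC* and *GNL* were lower in both mutants. *GNC* fell by 0.59 and 0.79, and *GNL* fell from 12.9 CPM in both wild-type libraries to 8.34 and 8.84 CPM in *fio1-1* and 5.45 and 5.51 CPM in *fio1-2* (log2 -0.58 and -1.23, adjusted p = 0.00551 and 1.33e-07). *GUN1*, of plastid-to-nucleus signalling, fell by 0.14 and 0.21. Of the sigma factors of plastid RNA polymerase, *SIG1* rose by 0.40 and 0.77. *SIG5* had few counts, at 9.10 and 6.06 CPM in wild type, 4.37 and 3.08 CPM in *fio1-1*, and 6.59 and 7.42 CPM in *fio1-2*. It fell by 1.00 in *fio1-1* and stood at -0.07 in *fio1-2* (adjusted p = 0.836), with a difference between the mutants of 0.93 (adjusted p = 0.0047). *SIG6* fell by 0.23 in *fio1-2* and stood at -0.01 in *fio1-1*. *SIG2* stood at -0.01 and -0.13 (adjusted p = 0.928 and 0.058).

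The plastid-encoded core genes had few counts, with 23.2 to 62.3 CPM summed over 7 genes in each library, and *psaC* was below the count filter. The sum was 62.3 CPM in the first *fio1-1* library and 28.8 CPM in the second. *psaA*, *psaB* and *psbA* were higher in *fio1-1* (adjusted p = 0.0394, 0.0144 and 0.000781), and *psbA* in *fio1-2* (adjusted p = 0.00653). For *fio1-1* these values rest mostly on its first library.

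Of the 4 leaf markers, which encode no antenna protein, 2 were higher and 1 lower in *fio1-1*, and 1 was higher and 3 lower in *fio1-2*. *RCA*, for Rubisco activase, was the one higher in both, by 0.38 and 0.13 on the log2 scale (adjusted p = 3.55e-27 and 8.44e-08). *RBCS1A*, for the small subunit of Rubisco, was at 14201 and 13938 CPM in wild type, 16014 and 15198 CPM in *fio1-1*, and 11796 and 11825 CPM in *fio1-2*. *CA1*, for a carbonic anhydrase, was at 1569 and 1539 CPM in wild type, 1538 and 1537 CPM in *fio1-1*, and 975 and 1012 CPM in *fio1-2*. All 4 leaf markers were lower in *fio1-2* than in *fio1-1*, by 0.25 to 0.63 on the log2 scale. The whole list summed to 0.85-fold of wild type in *fio1-2*, beside 1.45-fold for the antenna sum.

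A limit applies to genes that overlap on opposite strands, since the strand setting of the counting is not stated. Of the 44 members, 16 overlap such a gene, among them 4 of the 7 with changes of at least 2-fold. AT2G08665, annotated as a natural antisense transcript of *LHCB1.5*, had 90.9% of its mean CPM and log2 fold changes of 0.97 and 1.15, next to 0.98 and 1.15 for *LHCB1.5* itself. AT1G55673, opposite *PSAG*, had 95.2% of its CPM, and AT4G28755, opposite *PSAE1*, had 85%. Reads of the partners in these pairs cannot be told apart here. AT3G27700, opposite *LHCB2.3*, had 48.3% of its CPM and changes of 0.59 and 0.87, next to 1.52 and 1.82 for *LHCB2.3*. In addition, 2 members overlap a gene on their own strand. AT1G03140 had 15.1% of the CPM of *PSAD2* and changes of 0.12 and 0.30, and AT1G06670 had 2.49% of the CPM of *PSBP1*.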

How the data were processed

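RNA-seq counts of 6 libraries, 2 for each genotype, were analysed. The authors trimmed 150-base paired reads with Trim Galore 0.6.3, aligned them to TAIR10 with HISAT2 2.1.0 and counted reads for each gene with HTSeq 0.9.1, and the deposited values are these raw counts. The strand setting is not given in the sources used here. The deposited tables of the authors' own comparisons (log2 fold changes, mean log2 CPM, statistics, p-values and log odds) were not used.

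Genes kept by filterByExpr (21268) were scaled with TMM factors and fitted with limma-voom over all 6 libraries, with a mean for each genotype and no covariate, and p-values were adjusted over all genes by Benjamini-Hochberg. CPM were scaled by TMM, and RPKM used the exon length in TAIR10.1. Same-numbered libraries did not deviate together. The fit was tested on simulated counts with the same spread setting for every gene, so that this test does not bear on the p-values given. Values in every library are given for members changed at least 2-fold in any comparison, for the member with the most CPM in each class, for members changed against the median of their class, and for the 5 that differed most between the mutants. Of the pathway lists, the 2 genes that changed most for each list and mutant, and all regulators, are named. The members' rule uses no measured value, but members, lists and motifs were chosen with earlier results of these data known. Alternatives were edgeR, DESeq2, other scalings, filters and priors, a replicate block, and leaving out each library. The versions used were limma 3.58.1, edgeR 4.0.16 and DESeq2 1.42.0 in R 4.3.3, and Biopython 1.88 in Python 3.11.15.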

Additional observations from a re-analysis of the deposited data

Results flagged for a closer look

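For 6 members the estimated change against wild type had opposite signs in the mutants, and the mutants differed in the direct limma-voom comparison. Only *PSBR* and *PSBO2* differed from wild type in both mutants. Those calls were lost in both mutants with a robust variance prior for *PSBR*, and with edgeR and DESeq2 for *PSBO2*. The values of *fio1-2* against *fio1-1* on the log2 scale were -0.32 for *LHCA5*, -0.39 for *LHCA6*, -0.18 for *PSBO2*, -0.36 for *PSBR*, -0.22 for *PSBTN* and -0.28 for *PSBS*. The sign in the other mutant is therefore uncertain for the remaining 4: *LHCA6* in *fio1-2* was at -0.01 (adjusted p = 0.897), at 0.08 without the first *fio1-2* library and at 0.0049 with upper-quartile factors, *LHCA5* in *fio1-2* was at -0.04 (adjusted p = 0.592), and *PSBS* in *fio1-1* was at 0.02 (adjusted p = 0.727) and at -0.0067 without scaling factors. *PSBTN*, for a small PSII subunit, was at 0.17 in *fio1-1* (adjusted p = 3.53e-06) and at -0.05 in *fio1-2* (adjusted p = 0.217, and -0.10 with adjusted p = 0.0188 without the second *fio1-2* library).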

How the results depend on the processing

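Each comparison was repeated with edgeR, DESeq2, upper-quartile factors, no scaling factors, TMM without the members and plastid genes, no low-count filter, a robust variance prior, only the groups compared, a replicate block, and without each library. The median of all genes moved by at most 0.0395 on the log2 scale. Apart from the 2-fold rule, under which 6, 7 and 0 members were left, the numbers of members that differed stayed within 1.5 times those given, at 38 to 41 in *fio1-1*, 33 to 39 in *fio1-2* and 26 to 36 between the mutants. Replicate numbers did not pair the libraries (correlations of deviations of 0.00, -0.00 and -0.03). With the replicate block *LHCB7* in *fio1-2* had an adjusted p of 0.0543 and a log2 fold change of -0.46, and *PSBO1* in *fio1-2* had an adjusted p of 0.0808 while the block changed no other call of a member. The antenna median in *fio1-1* was 0.55 with upper-quartile factors. Between the mutants it was 0.00891 without scaling factors and -0.061 to 0.0395 without 1 library. Without 1 library the antenna median was 0.48 to 0.59 in *fio1-2*, and the subunit median 0.23 to 0.32 in *fio1-1* and 0.13 to 0.20 in *fio1-2*. The LHCB1 sum between the mutants was -0.0468 with edgeR, -0.0436 with DESeq2 and -0.0465 with the robust prior (adjusted p = 0.229, 0.545 and 0.406), and -0.0798 to -0.0146 without 1 library. The LHCB4 sum between the mutants was 0.0357 without scaling factors (adjusted p = 0.0441) and -0.0292 to 0.0624 without 1 library. The PSAH sum in *fio1-2* was 0.11 with DESeq2 (adjusted p = 0.0574) and 0.055 to 0.158 without 1 library, and between the mutants -0.187 to -0.0802 without 1 library. For each of these changes the cause was not tested. With 2 libraries for each genotype, the calls of *LHCB7* and *PSBO1* in *fio1-2* were each lost in 9 settings, the most of any member.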

Other observations

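Some loci annotated opposite members carried many counts and changed in the direction of the member, and others did not. AT1G05207, opposite *LHCB6*, had 42.2% of its mean CPM. Its rise was 0.82 on the log2 scale for *fio1-1* and 0.92 for *fio1-2*, next to 0.87 and 0.87 for *LHCB6*. AT4G28755, opposite *PSAE1*, had changes of 0.36 and 0.31, next to 0.34 and 0.26. AT5G54280, which overlaps the end of *LHCB3*, had changes of 1.00 and 0.89, next to 1.09 and 1.23 for *LHCB3*. By contrast AT3G08943, opposite *LHCB4.2*, had 4.43% of its CPM and changes of -0.27 and -0.15, next to 1.29 and 1.64 for *LHCB4.2*. AT2G34410, which also overlaps *LHCB1.5*, had 0.256% of its CPM and changes of -0.16 and -0.04, and AT4G28740, which also overlaps *PSAE1*, had 3.4% and changes of 0.01 and -0.38.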
